A study of Mus musculus with 7 samples.

Results

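Fibroblast growth factors (FGFs) are secreted proteins that bind receptor tyrosine kinases at the cell surface together with heparan sulfate, a sugar chain carried by membrane and matrix proteoglycans. A bound receptor phosphorylates the adaptor FRS2, which hands the signal to the RAS-ERK and PI3K-AKT cascades, and ERK in turn switches on ETS factors and feedback inhibitors of the Sprouty and Spred families. In the developing and adult brain this pathway maintains neural stem cells and takes part in the fate of astrocytes and oligodendrocytes, and in gliomas it is known as a growth signal.

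Expression of 10 genes of this pathway was described in bulk RNA-seq of 2 mouse models of glioblastoma (GBM), a malignant brain tumor. They were the kinase receptors Fgfr1, Fgfr2, Fgfr3 and Fgfr4, the receptor without a kinase domain Fgfrl1, the ligands Fgf1, Fgf2 and Fgf9, the intracellular FGF homolog Fgf13, and Fgfbp3, a secreted protein that binds FGFs. The members were listed by gene name with earlier results of these data known, and all 10 were found among the 49492 genes of the count table.

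The NSCHRas-shp53 model came from adult mice whose ventricular-subventricular zone received a lentivirus with a short hairpin RNA against Trp53 and human HRAS in a constitutively active form, and the 3 libraries were made from whole tumor tissue without sorting. The NPCTKO model came from neocortical precursors that were electroporated in utero with Cas9 and guide RNAs against tumor suppressor genes, Trp53 and Nf1 among them, together with a piggyBac cassette for luciferase and EGFP or DsRed, and the 4 libraries were made from EGFP+ or DsRed+ tumor cells sorted after dissociation. The labels give C57BL/6 and an age of 3 months for all 7 libraries, and the reporter and the host allele of each library are not given in the sources used here. HRAS acts downstream of FGF receptors, and Nf1, edited in NPCTKO, encodes an inhibitor of RAS. The study speaks of the libraries as separate GBMs, the submitters' design text speaks of duplicates, and the labels name no mouse, so p-values measure the spread between these libraries.

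Model and preparation changed together and cannot be told apart, and fewer cells of a type cannot be told apart from less RNA per cell. The total counts ranged from 17529054 to 19840860 in NSCHRas-shp53 and from 15002873 to 19247326 in NPCTKO libraries. The summed level of 12 astrocyte markers, in CPM (counts scaled to library size after TMM normalization), ranged from 3321 to 4449 in NSCHRas-shp53 and from 228 to 649 in NPCTKO, and 9 of the 11 tested rose in NSCHRas-shp53 in the edgeR test. Neuron markers summed to 794 to 1529 CPM in NSCHRas-shp53 and to 35.1 to 262 CPM in NPCTKO (9 of 10 tested rose), and mural cell markers to 295 to 491 CPM and 21.8 to 37.5 CPM in the same order of models (6 of 10 rose). Endothelial markers summed to 558 to 1088 CPM in NSCHRas-shp53 and to 33.3 to 358 CPM in NPCTKO (3 of 10 rose), and markers of oligodendrocyte precursor cells (OPCs) to 731 to 1065 CPM in NSCHRas-shp53 and to 2854 to 6070 CPM in NPCTKO (5 of 8 fell). Markers of tumor-associated microglia and macrophages summed to 2386 to 6907 CPM in NSCHRas-shp53, against 18523, 22957, 447 and 2912 CPM in NPCTKO libraries 1 to 4, and 0 of 11 were called (0 at an unadjusted p under 0.05, and 0 in DESeq2). Gfap, a common astrocyte marker, lies inside another gene and holds 0 counts in every library. It was read at 716, 789 and 1096 FPKM in NSCHRas-shp53 and 30.6, 68.3, 19.1 and 86.9 FPKM in NPCTKO. The study reports GFAP in some and OLIG2 in many NPCTKO tumor cells, and an astrocyte-like state in NSCHRas-shp53 tumors. The astrocyte and OPC markers thus do not separate normal cells from tumor cells. None of the astrocyte, neuron, mural or endothelial lists had a marker at 0 in every NPCTKO library alone. At 0 in some NPCTKO libraries were Gjb6 of the astrocyte list and Kcnj8, Tbx18 and Higd1b of the mural list. The part of these cells in the differences below was not tested. NPCTKO libraries 1 and 2 also stood apart in base composition. The rank correlation across genes between GC content and the deviation of a library from the mean was 0.63 and 0.55 in them, and from -0.43 to -0.21 in the other 5, as a description of these libraries.

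RefSeq promoters (build GRCm38.p6) were matched for 8 of the 10 members. Of these, 2 are shown, Fgfr4 as the receptor and Fgf2 as the ligand with an entry and the lowest adjusted p below, over the 250 bases before the RefSeq start. That start lies inside the gene span of the count table for both, so the windows fall partly (Fgfr4) or wholly (Fgf2) within that span. Fgfr4 (chr13:55152568-55152817, plus strand) and Fgf2 (chr3:37348403-37348652, plus strand) are given 5′ to 3′, with the GC box GGGCGG in capitals.
Fgfr4: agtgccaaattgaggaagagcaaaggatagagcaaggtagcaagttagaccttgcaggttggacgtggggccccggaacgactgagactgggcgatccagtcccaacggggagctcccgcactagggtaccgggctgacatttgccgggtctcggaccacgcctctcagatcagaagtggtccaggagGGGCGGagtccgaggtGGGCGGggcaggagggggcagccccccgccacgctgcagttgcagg
Fgf2: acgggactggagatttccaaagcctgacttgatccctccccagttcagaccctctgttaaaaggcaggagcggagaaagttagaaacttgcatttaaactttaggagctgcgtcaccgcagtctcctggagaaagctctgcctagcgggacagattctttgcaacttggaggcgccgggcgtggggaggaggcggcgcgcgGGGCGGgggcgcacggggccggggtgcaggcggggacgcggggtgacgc

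The GC box was searched on both strands and was found 2 times before Fgfr4 and 1 time before Fgf2, and in 32.7% of all 32851 promoters over the same length. The ETS core CCGGAA, the letters that ERK-responsive ETS factors bind, was found 1 time before Fgfr4 and in 12% of all promoters, and not in the Fgf2 window. The AP-1 letters TGANTCA were in neither window and in 6.75% of all promoters. A match is a description of the letters in the window and not a site in use.

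Both tables of the study were needed to read the members. Counts were taken over whole gene spans, introns included, and FPKM values, which scale fragments to exon length and sequencing depth, were estimated over exons. Fgf1, on chromosome 18, lies wholly inside the span of Arhgap26 and had 0 counts in all 7 libraries. For Fgf2, 99.4% of the exon bases lie inside other annotated genes, and its counts were 0, 5 and 6 in NSCHRas-shp53 and 0 in each NPCTKO library, so both ligands were read as FPKM. Fgfrl1 shares 1 row of the FPKM table with its neighbour Idua and was read from counts. The kit named by the labels keeps no strand, so reads of a gene and of an antisense partner cannot be told apart.

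The receptors Fgfr4 and Fgfr1 were called higher in NSCHRas-shp53 in the counts, and no member was called lower. Of 8 members tested with edgeR, 2 were called higher (25.0% of those tested, against 7.77% of all 16091 genes) and 0 lower (against 5.28% of all genes). At an unadjusted p under 0.05 edgeR had 3 higher and 1 lower, and DESeq2 called 3 higher and 0 lower. The median log2 fold change of the 8 tested members was 1.15, and that of all genes tested was -0.10. With limma on the FPKM table, 5 of 9 members tested were called higher, Fgf1 and Fgf2 among them (against 7.52% of 18594 rows), and 0 lower (against 4.51%). With 8 members, chosen with earlier results of these data known, these counts describe the members and were not tested as a set.

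Fgfr1, which had the highest FPKM of the 4 kinase receptors in every library, lies on the plus strand of chromosome 8 of mm10 from 25513654 to 25575718. It is a main FGF receptor of neural stem cells. It had 40.1, 65.8 and 72.6 FPKM in NSCHRas-shp53, against 14.4, 13.3, 15.1 and 32.0 FPKM in NPCTKO libraries 1 to 4. Every NSCHRas-shp53 library lay above every NPCTKO library, which held for 14.3% of all FPKM rows tested, and NPCTKO library 4 came nearest. In CPM it had 221, 349 and 376 in NSCHRas-shp53 and 94.7, 78.7, 85.9 and 192 in NPCTKO. The log2 fold change was 1.48 (SE 0.40, edgeR adjusted p = 0.045) in the counts and 1.67 (SE 0.36, limma adjusted p = 0.026) on the log2(FPKM + 1) scale. The call was near its threshold. Leaving out any 1 of the 3 NSCHRas-shp53 libraries or NPCTKO library 1, 2 or 3 ended it, with adjusted p from 0.063 to 0.169 in these edgeR fits, and leaving out NPCTKO library 4 gave 0.018. Without NPCTKO libraries 1 and 2 together the log2 fold change was 1.22 (edgeR adjusted p = 0.092), and without TMM factors or without a filter on low counts the adjusted p was 0.065 and 0.051. With limma on FPKM the call was lost in 6 of 12 other fits.

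Fgfr4, on the plus strand of chromosome 13 of mm10 from 55152640 to 55168759, is a receptor best known from liver and from muscle progenitors, and it does not overlap another gene in the count table. It was read by 221, 222 and 90 counts in NSCHRas-shp53, against 28, 10, 36 and 19 counts in NPCTKO. That is 12.1, 11.3 and 3.89 CPM in NSCHRas-shp53 and 1.88, 0.78, 1.88 and 1.15 CPM in NPCTKO. The groups did not overlap, with NSCHRas-shp53 above, which held for 16.3% of all genes tested, and NSCHRas-shp53 library 3 stood well below the other 2. The log2 fold change of 2.66 (SE 0.56, edgeR adjusted p = 0.020) was the highest among the 8 members tested in the counts. On the log2(FPKM + 1) scale its difference was 1.42 (SE 0.30, limma adjusted p = 0.024), below those of Fgf1, Fgf2, Fgfr1 and Fgfr3. On the log2(FPKM + 0.1) scale it was 2.66, below Fgf2 (3.60) and above Fgf1 (2.51), Fgfr1 (1.72) and Fgfr3 (1.62). Its place among the members thus depended on the value added before the log. In FPKM it was 3.52, 3.69 and 1.04 in NSCHRas-shp53 and 0.37, 0.18, 0.49 and 0.22 in NPCTKO. The edgeR call was lost without NSCHRas-shp53 library 1 (edgeR adjusted p = 0.070) and without NSCHRas-shp53 library 2 (0.083). With limma on FPKM the call was lost in 7 of 12 other fits, among them those without NPCTKO library 1, 2 or 4.

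Fgfr3, a receptor known from astrocytes and their precursors, lies on the plus strand of chromosome 5 of mm10 from 33721674 to 33737068. It had 17.1, 41.4 and 30.7 FPKM in NSCHRas-shp53 and 8.73, 11.9, 2.41 and 25.6 FPKM in NPCTKO. The groups overlapped, since NPCTKO library 4 lay above NSCHRas-shp53 library 1. Its log2 fold change was 1.15 (SE 0.65), and it was not called (edgeR adjusted p = 0.27). The spread was widest inside NPCTKO, where library 4 was 9.66 times library 3 in CPM and 10.6 times in FPKM.

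Fgfr2, a receptor of astrocytes and oligodendrocytes in the brain, had 10.6, 11.4 and 8.26 FPKM in NSCHRas-shp53 and 5.24, 3.99, 2.17 and 6.90 FPKM in NPCTKO. The groups did not overlap in FPKM. They did overlap in CPM, where NSCHRas-shp53 had 73.9, 75.3 and 58.0 and NPCTKO 41.6, 35.7, 37.4 and 74.9. The span counted for it runs over 2960900 bases of chromosome 7 and holds 69 other genes, so its counts include reads from outside its exons. Relative to other genes, the ratio of CPM to FPKM for Fgfr2 was 1.83 in NPCTKO library 3 and from 0.72 to 1.14 in the other 6 libraries. It was called in neither table (log2 fold change 0.54, SE 0.33, edgeR adjusted p = 0.31; 1.06, SE 0.35, limma adjusted p = 0.10).

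Fgfrl1 differed in direction from the other receptors. It encodes a receptor that binds FGFs but lacks the kinase domain, and lies on the plus strand of chromosome 5 of mm10 from 108692382 to 108706924. It had 98, 143 and 122 CPM in NSCHRas-shp53, against 305, 249, 185 and 169 CPM in NPCTKO. The groups did not overlap, with NSCHRas-shp53 below, which held for 14.9% of all genes tested. The log2 fold change was -0.91 (SE 0.32), with an unadjusted p of 0.021 and an edgeR adjusted p of 0.10, so it was not called. Its neighbour Idua, which shares the FPKM row, had 34.5, 29.6 and 30.5 CPM in NSCHRas-shp53 and 37.1, 49.4, 23.4 and 25.3 CPM in NPCTKO. The joint row of both genes had 42.4, 66.7 and 49.9 FPKM in NSCHRas-shp53 and 86.7, 76.3, 66.3 and 58.2 FPKM in NPCTKO, with overlap and no call (limma adjusted p = 0.27).

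**Figure D1:**
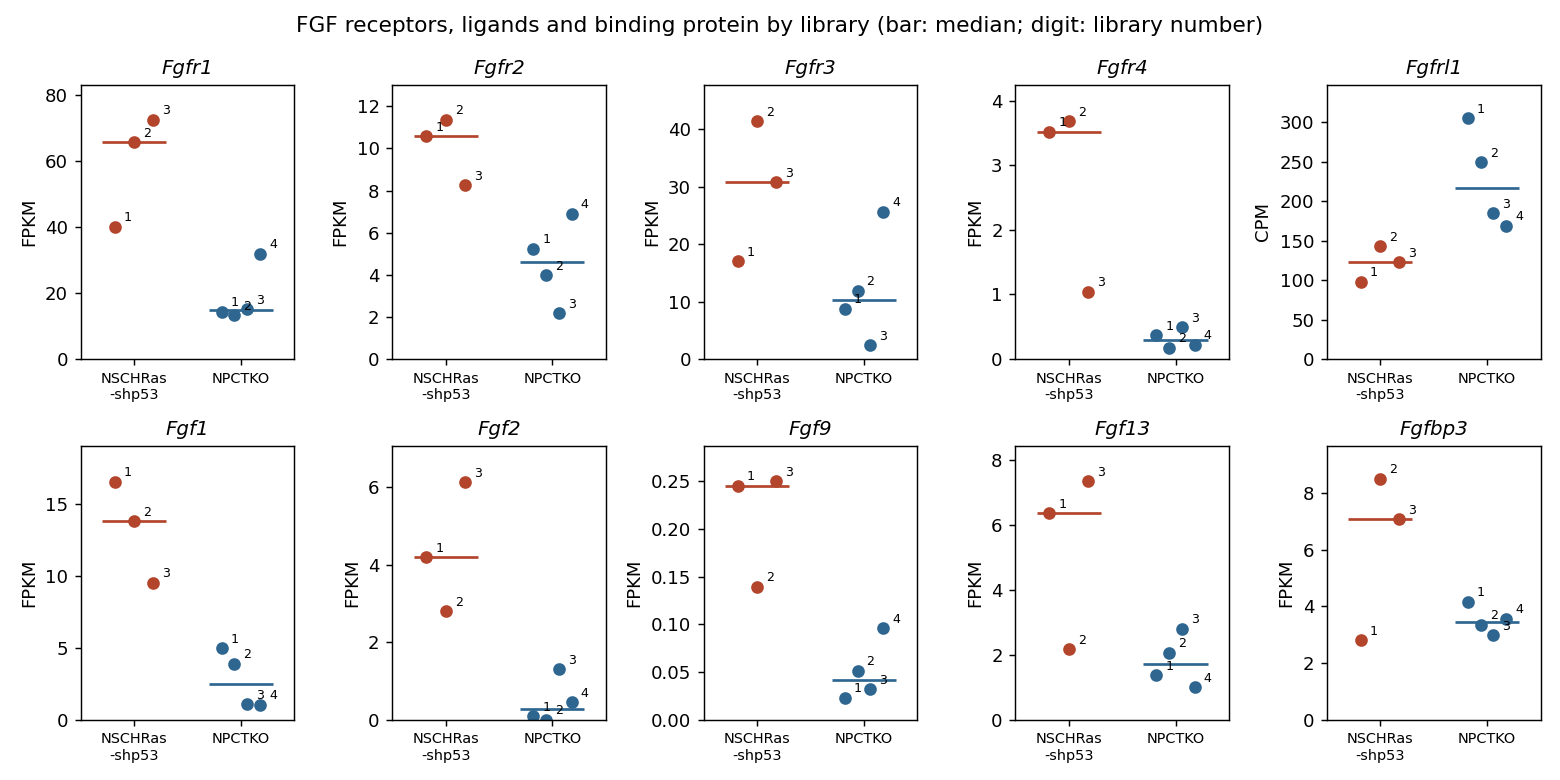
Level of each of the 10 members in the 3 NSCHRas-shp53 (left in each panel) and 4 NPCTKO libraries, in FPKM except Fgfrl1, which is in CPM; points are libraries with their number and bars are medians. Fgfr1, Fgfr2, Fgfr4, Fgf1, Fgf2 and Fgf9 lie above NPCTKO in every NSCHRas-shp53 library, Fgfrl1 lies below, and Fgfr3, Fgf13 and Fgfbp3 overlap.

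The 4 kinase receptors together summed to 71.3, 122 and 113 FPKM in NSCHRas-shp53, against 28.7, 29.4, 20.2 and 64.7 FPKM in NPCTKO, without overlap. Their make-up was described as each receptor's percent of that sum. Fgfr1 made up 58.2% ± 5.57 (SD, n = 3) in NSCHRas-shp53 and 54.9% ± 13.5 (SD, n = 4) in NPCTKO, and Fgfr3 28.4% ± 5.07 and 30.6% ± 13.3 in the same order of models. For both receptors, the means of the models differed by less than the spread between libraries. NPCTKO library 3 stood apart, with 74.9% Fgfr1 and 11.9% Fgfr3, against 45.3 to 50.1% Fgfr1 and 30.4 to 40.5% Fgfr3 in the other 3 NPCTKO libraries. Fgfr4 made up 4.94, 3.01 and 0.92% in NSCHRas-shp53 and 0.35 to 2.44% in NPCTKO, so it remained the smallest part of the sum in every library of both models.

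**Figure D2:**
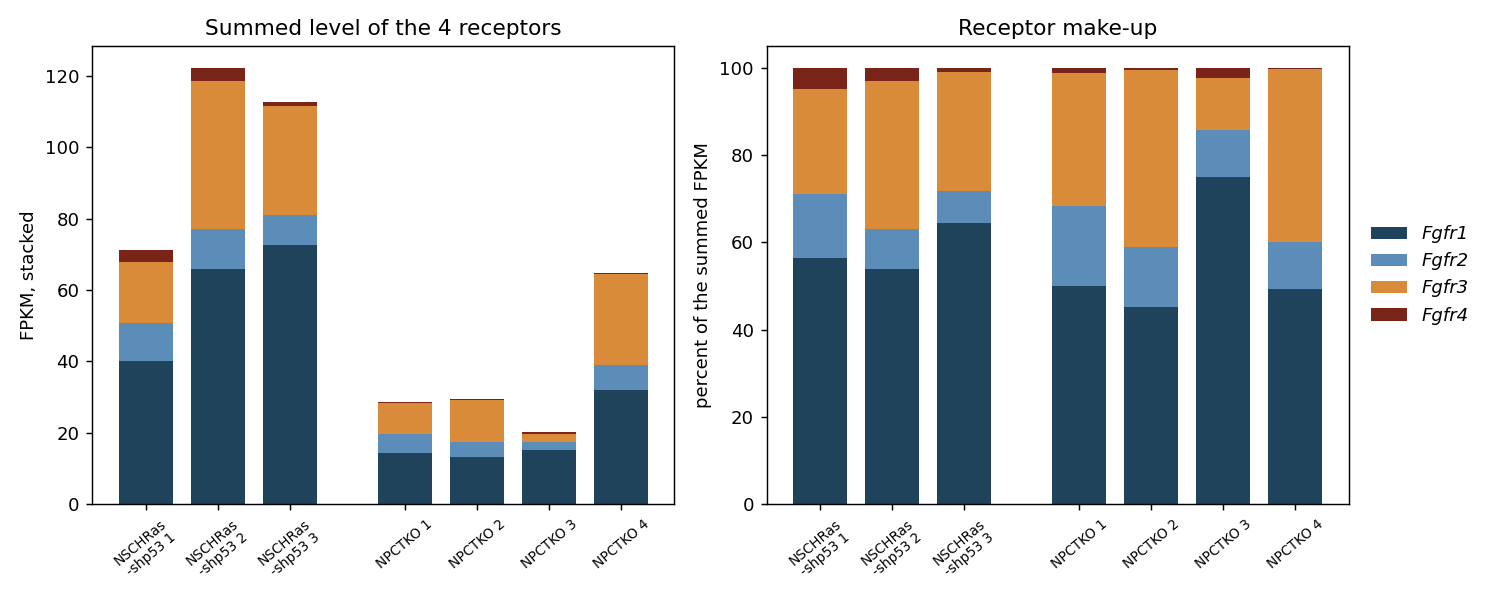
Left, FPKM of Fgfr1, Fgfr2, Fgfr3 and Fgfr4 stacked for each library, with NSCHRas-shp53 left of NPCTKO; right, the same values as percent of each library's sum. The sum is 71.3 to 122 FPKM in NSCHRas-shp53 and 20.2 to 64.7 FPKM in NPCTKO, and Fgfr1 is the largest part of every bar.

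Among the ligands, Fgf1, which binds all FGF receptors and has no signal peptide, had 16.5, 13.8 and 9.51 FPKM in NSCHRas-shp53, against 4.95, 3.90, 1.08 and 1.04 FPKM in NPCTKO. All NSCHRas-shp53 libraries lay above all NPCTKO libraries, and within NPCTKO libraries 1 and 2 lay above 3 and 4. The difference on the log2(FPKM + 1) scale was 2.07 (SE 0.47, limma adjusted p = 0.032). It kept its direction without any 1 library, with adjusted p from 0.031 to 0.104, and was lost when any 1 NSCHRas-shp53 library or NPCTKO library 3 or 4 was left out. Without NPCTKO libraries 1 and 2 together the difference was 2.76 (limma adjusted p = 0.016).

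Fgf2, basic FGF, is the mitogen used to grow neural stem cells in culture. It lies on the plus strand of chromosome 3 of mm10 from 37348346 to 37410108, and had 4.19, 2.80 and 6.13 FPKM in NSCHRas-shp53. In NPCTKO it had 0.098, 1.31 and 0.45 FPKM in libraries 1, 3 and 4 and was listed at 0 in library 2, so the groups did not overlap. The difference on the log2(FPKM + 1) scale was 1.91 (SE 0.35, limma adjusted p = 0.015). It was lost without NSCHRas-shp53 library 3 (limma adjusted p = 0.053) and without NPCTKO libraries 1 and 2 together (0.063).

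Fgf9, a secreted ligand that neurons and glia make, was close to the limit of detection. It was read by 24, 17 and 31 counts in NSCHRas-shp53 and by 6, 6, 7 and 14 counts in NPCTKO. In CPM that is 1.31, 0.86 and 1.34 in NSCHRas-shp53 and 0.40, 0.47, 0.36 and 0.85 in NPCTKO. The groups just failed to touch, and the log2 fold change of 1.16 (SE 0.52) was not called (edgeR adjusted p = 0.17). In FPKM it had 0.25, 0.14 and 0.25 in NSCHRas-shp53 and 0.023, 0.051, 0.032 and 0.096 in NPCTKO, and the difference of 0.20 on the log2(FPKM + 1) scale, which understates the change of so low a gene, passed (SE 0.05, limma adjusted p = 0.043). That call was lost without any 1 NPCTKO library and without NSCHRas-shp53 library 1 or 3 (limma adjusted p from 0.053 to 0.141).

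Fgf13 belongs to the FGF homologous factors, which stay inside the cell, bind sodium channels and microtubules, and are abundant in neurons. Located on the minus strand of chromosome X of mm10 from 59062145 to 59568071, it had 21.4, 7.41 and 19.1 CPM in NSCHRas-shp53 and 3.16, 4.37, 7.81 and 2.42 CPM in NPCTKO. NSCHRas-shp53 library 2 lay just below NPCTKO library 3, and the other values did not overlap. The log2 fold change of 1.84 (SE 0.54) just missed the threshold in edgeR (adjusted p = 0.059) and passed it in DESeq2 (adjusted p = 0.0099). In FPKM it was not called (difference 1.09, SE 0.42, limma adjusted p = 0.14), nor in any of 12 other limma fits.

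Fgfbp3, a secreted carrier that releases FGFs from the matrix, had 5.08, 13.0 and 11.1 CPM in NSCHRas-shp53 and 8.14, 6.86, 4.32 and 6.23 CPM in NPCTKO. The groups overlapped, with NSCHRas-shp53 library 1 inside the NPCTKO range. It was not called in either table (log2 fold change 0.61, SE 0.44, edgeR adjusted p = 0.39).

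**Figure D3:**
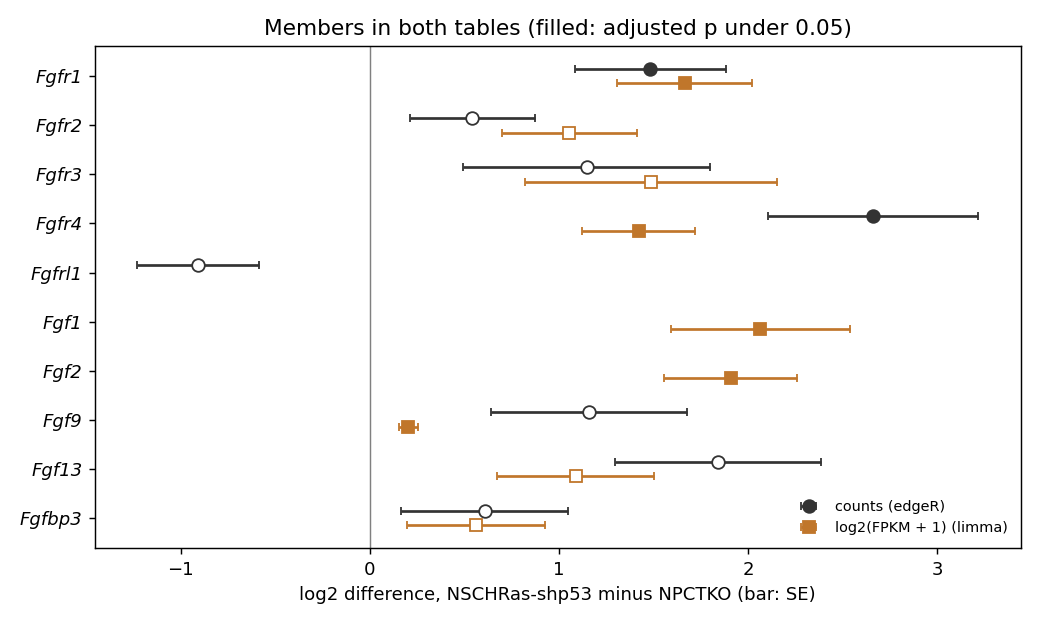
Log2 difference of each member, NSCHRas-shp53 minus NPCTKO, with SE, from counts (circles, edgeR) and from log2(FPKM + 1) (squares, limma); filled symbols passed an adjusted p of 0.05. Fgfr1 and Fgfr4 are filled in both tables, Fgf1, Fgf2 and Fgf9 in FPKM, and Fgfrl1 is the member left of 0.

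Levels of the 9 members with an FPKM row of their own were ordered by FPKM, which is per length of exon. Fgfrl1 was left out since its row is shared. In NSCHRas-shp53 the mean levels ran in the order Fgfr1 (59.5 FPKM), Fgfr3 (29.7), Fgf1 (13.3), Fgfr2 (10.1), Fgfbp3 (6.13), Fgf13 (5.29), Fgf2 (4.37), Fgfr4 (2.75) and Fgf9 (0.21). Only 2 neighbouring pairs in this order had ranges that did not overlap, Fgfr3 over Fgf1 and Fgfr4 over Fgf9. Within each library, however, Fgfr1 was above Fgfr3 in 3 of 3, and Fgf1 above Fgfr2 in 3 of 3. In NPCTKO the order began with Fgfr1 (18.7 FPKM), Fgfr3 (12.2) and Fgfr2 (4.58) and ended with Fgfr4 (0.32) above Fgf9 (0.051), which was the 1 pair of neighbours whose ranges did not overlap. Fgf1 held rank 3 in all 3 NSCHRas-shp53 libraries and rank 4 to 7 in NPCTKO libraries.

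The genes whose pattern over the 7 libraries was nearest to that of each called receptor were found by the root mean square difference of centred log2(CPM + 1), among 10870 genes (10871 for Fgfr4) with a mean of at least 10 CPM. For Fgfr1 these were Lgals1 (0.18), which encodes galectin-1, Yap1 (0.19), a coactivator of the Hippo pathway, and Pafah2 (0.22), a phospholipase. Yap1 had 95.3, 110 and 116 CPM in NSCHRas-shp53 and 26.2, 25.3, 31.9 and 59.8 CPM in NPCTKO, with NPCTKO library 4 highest of its group, like Fgfr1. For Fgfr4 they were less near, Zbtb7c (0.31) and the mitochondrial genes mt-Nd1 (0.34) and mt-Co1 (0.37). mt-Nd1 had 5597, 3034 and 1485 CPM in NSCHRas-shp53, which like Fgfr4 was lowest in library 3, and 609, 437, 788 and 429 CPM in NPCTKO.

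The other genes of the pathway were described from lists by role, which were chosen with earlier results of these data known. In all, 89 other pathway genes were tested, of which edgeR called 11 higher (12.4%, against 7.77% of all genes) and 5 lower (5.62%, against 5.28%), and the share called lower was near that of all genes. Leaving out any 1 NSCHRas-shp53 library left 4 to 7 higher and 0 or 1 lower, and leaving out NPCTKO library 1 or 2 left 2 lower. Among 18 other FGF ligands most were near or below detection in the counts. Of the 18, 1 lies wholly inside another gene and holds 0 counts, so its level cannot be read there. The filter on low counts was passed by 7. Of these, 2 rose (28.6%, against 7.77% of all genes) and 1 fell (14.3%, against 5.28%) in NSCHRas-shp53. Fgf18 rose, from the subfamily that also holds Fgf17, with 2.13, 2.54 and 3.16 CPM in NSCHRas-shp53 and 0.81, 0.16, 0.68 and 0.73 CPM in NPCTKO (log2 fold change 2.12, SE 0.58, edgeR adjusted p = 0.047). Fgf17, known as a ligand of the embryonic forebrain and midbrain, fell, with 5, 9 and 5 counts in NSCHRas-shp53 and 23, 18, 28 and 20 counts in NPCTKO (log2 fold change -2.14, SE 0.52, adjusted p = 0.032). Both pairs of groups stood without overlap in CPM at these few counts. Of all genes tested, 16.3% stood so with NSCHRas-shp53 above and 14.9% with it below. By contrast, Fgf17 in FPKM had 0.10, 0.22 and 0.12 in NSCHRas-shp53 and 0.42, 0.48, 0.64 and 0.11 in NPCTKO, with overlap. In FPKM neither was called (limma adjusted p = 0.053 for Fgf18 and 0.20 for Fgf17).

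Fgf10, a ligand known from lung and limb buds and from tanycytes of the hypothalamus, was read by 14, 24 and 32 counts in NSCHRas-shp53. It had 3 counts in NPCTKO library 3 and 0 in the other 3 NPCTKO libraries. It was called higher (edgeR adjusted p = 0.023), and the ratio of summed counts, scaled by library size, was 24.2 (95% exact counting interval 7.95 to 120.2). This interval pools the libraries of each model and leaves out the spread between them. Fgf14, a sodium channel partner like Fgf13, had 11.3, 23.8 and 12.2 CPM in NSCHRas-shp53 and 2.69, 1.48, 8.70 and 6.59 CPM in NPCTKO, not called (edgeR adjusted p = 0.11). A pair of ligands that did not pass the filter on low counts was called lower with limma in FPKM. For Fgf15 of this pair, 73.1% of the exon bases lie inside other annotated genes. Fgf15, the mouse counterpart of human FGF19, had 0.034 and 0.23 FPKM in NSCHRas-shp53 libraries 1 and 2, was listed at 0 in library 3, and had 0.85, 1.5, 0.39 and 1.05 FPKM in NPCTKO (adjusted p = 0.035). Fgf21, a hormone-like ligand, had 0 counts in each NSCHRas-shp53 library and 5, 7, 4 and 4 counts in NPCTKO (limma adjusted p = 0.026 on FPKM). Fgf23, also hormone-like, was called higher in FPKM (limma adjusted p = 0.049) with values of 0.11 to 0.12 FPKM in NSCHRas-shp53 and 0 to 0.028 FPKM in NPCTKO. Its counts overlapped, with 4, 6 and 4 in NSCHRas-shp53 and 3, 1, 0 and 4 in NPCTKO.

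Of 11 co-receptors and binding partners, 6 were tested, and 2 lie wholly inside another gene with 0 counts and could not be. Called higher were 2 (33.3%, against 7.77% of all genes), and called lower 0 (0 at an unadjusted p under 0.05, and 0 in DESeq2). Il17rd (Sef), an inhibitor of FGF receptor signaling that is itself induced by it, had 33.9, 25.1 and 37.9 CPM in NSCHRas-shp53 and 5.38, 6.01, 9.01 and 5.74 CPM in NPCTKO. The groups lay far apart (log2 fold change 2.30, SE 0.34, edgeR adjusted p = 0.0068). Cdh2, N-cadherin, which binds FGFR1 and stabilizes it, had 293, 330.3 and 329 CPM in NSCHRas-shp53 and 55.6, 44.4, 167 and 109 CPM in NPCTKO (log2 fold change 1.75, SE 0.47, adjusted p = 0.043). Flrt2, of a family of membrane proteins that bind FGF receptors, had 31.1, 49.3 and 56.6 CPM in NSCHRas-shp53 and 2.09, 1.72, 14.4 and 14.0 CPM in NPCTKO without a call in the counts (edgeR adjusted p = 0.068), and was called in FPKM (limma adjusted p = 0.031). Klb, the co-receptor of hormone-like FGFs, had 0.055 to 0.65 CPM in NSCHRas-shp53 and 0.47 to 1.09 CPM in NPCTKO and was not called (edgeR adjusted p = 0.43).

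Of 33 heparan sulfate proteoglycans and enzymes, 31 were tested, and 5 were called higher (16.1%, against 7.77% of all genes) and 0 lower (against 5.28%). The list's median log2 fold change was 0.26. At an unadjusted p under 0.05, 7 were higher and 4 lower, DESeq2 called 6 higher and 2 lower, and limma on FPKM called 6 higher and 0 lower. Sulf1, a secreted sulfatase that trims 6-O-sulfate groups from heparan sulfate, had 140.4, 224 and 189 CPM in NSCHRas-shp53 and 6.73, 6.40, 9.48 and 20.3 CPM in NPCTKO (log2 fold change 4.10, SE 0.48, edgeR adjusted p = 0.0037). Glypican 4 (Gpc4), a proteoglycan anchored in the membrane by lipid, had 51.9, 88.9 and 73.8 CPM in NSCHRas-shp53 and 9.01, 11.4, 5.42 and 14.0 CPM in NPCTKO (log2 fold change 2.84, SE 0.39, adjusted p = 0.0054). The other 3 were the transmembrane syndecans Sdc4 (log2 fold change 2.75, adjusted p = 0.012) and Sdc2 (1.68, adjusted p = 0.022) and the glypican Gpc5 (2.41, adjusted p = 0.018). All 5 stood without overlap between the models. With NSCHRas-shp53 above, that held in CPM for 16.3% of all genes tested. The 5 had been picked by their call on the same values. Sdc4 and Gpc5 are also expressed by astrocytes, whose markers were higher in NSCHRas-shp53. The part of astrocytes in the values was not tested for any of the 5.

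Of 30 signal transducers, all were tested, and 0 were called higher (against 7.77% of all genes) and 2 lower (6.67%, near the 5.28% of all genes). Their median log2 fold change was -0.09. At an unadjusted p under 0.05, 0 were higher and 4 lower, DESeq2 called 0 higher and 3 lower, and limma on FPKM called 0 higher and 2 lower. Gab1, a docking protein between FRS2 and PI3K, had 85.1, 46.6 and 47.5 CPM in NSCHRas-shp53 and 131, 126, 185 and 125 CPM in NPCTKO (log2 fold change -1.25, SE 0.33, edgeR adjusted p = 0.044). The groups did not overlap. Map2k2, which encodes MEK2, and Pik3r1, a regulatory subunit of PI3K, had log2 fold changes of -1.03 and -0.97 and were not called (adjusted p = 0.12 and 0.079).

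Of 17 ERK feedback genes and ETS targets, 16 were tested, 3 rose (18.8%, against 7.77% of all genes) and 2 fell (12.5%, against 5.28%), with a median log2 fold change of 0.42. At an unadjusted p under 0.05, 5 were higher and 3 lower, DESeq2 called 3 higher and 2 lower, and limma on FPKM called 2 higher and 2 lower. Besides Il17rd, which is in both lists, Spry4 rose with 98.6, 147 and 154 CPM in NSCHRas-shp53 and 40.6, 34.3, 41.5 and 26.2 CPM in NPCTKO (log2 fold change 1.90, SE 0.29, edgeR adjusted p = 0.0079). Spred1, which brings neurofibromin to the membrane to inhibit RAS, rose with 289, 465 and 379 CPM in NSCHRas-shp53 and 63.2, 77.4, 127 and 125 CPM in NPCTKO (log2 fold change 1.94, SE 0.36, adjusted p = 0.013). Spry1, another Sprouty inhibitor, moved the opposite way, with 56.9, 54.9 and 31.1 CPM in NSCHRas-shp53 and 227, 189, 132 and 69.0 CPM in NPCTKO (log2 fold change -1.69, SE 0.46, adjusted p = 0.045). Myc, a transcription factor that ERK stabilizes, fell with 57.5, 48.3 and 43.9 CPM in NSCHRas-shp53 and 201, 221, 136 and 137 CPM in NPCTKO (log2 fold change -1.80, SE 0.31, adjusted p = 0.011). The feedback genes thus did not share 1 direction.

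**Figure D4:**
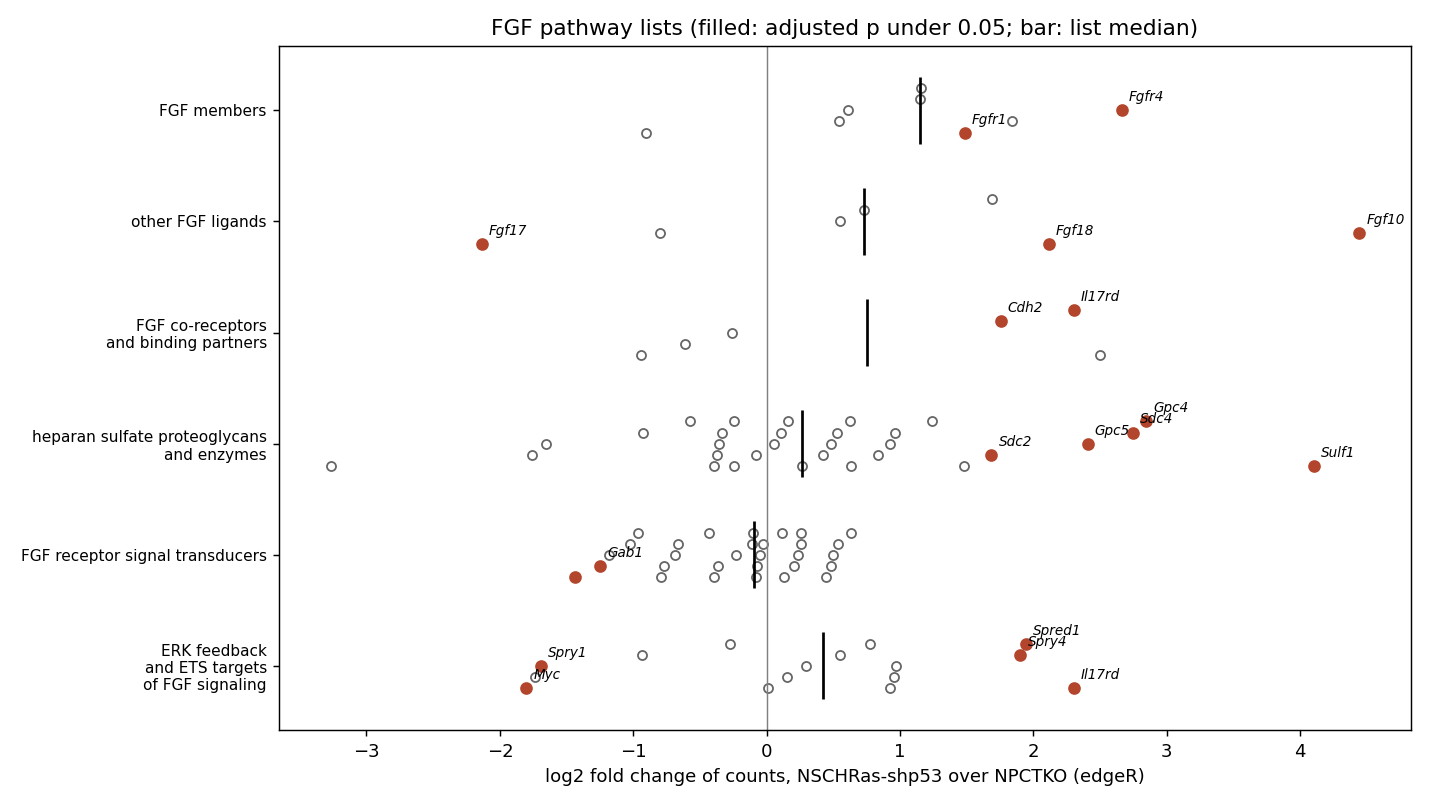
Log2 fold change of counts, NSCHRas-shp53 over NPCTKO, for every tested gene of the 6 lists; filled points passed an edgeR adjusted p of 0.05, with names for those described in the text, open points did not, and vertical bars are list medians. Medians run from -0.09 for the transducers to 1.15 for the members, against -0.10 for all genes tested.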

How the data were processed

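RNA of 3 NSCHRas-shp53 tumor samples and 4 NPCTKO sorted samples was sequenced as poly(A)-selected libraries. The authors trimmed reads with Cutadapt, aligned them with TopHat 2.1.1 to mm10, and deposited raw counts per gene (counter not given in the sources used) as well as FPKM values from Cufflinks 2.2.1. Genes were compared as NSCHRas-shp53 minus NPCTKO with edgeR 4.0.16 under R 4.3.3 (quasi-likelihood F-test, TMM, filterByExpr, p adjusted by Benjamini-Hochberg, threshold 0.05), and log2(FPKM + 1) with limma 3.58.1. DESeq2 1.42.0, other scalings, filters and pseudocounts, a replicate block, and fits without each library were alternatives. A count of 3 corresponds to 0.13 to 0.23 CPM, which covers counting error only, and the depth behind an FPKM value is not known. Named were all members, from each other list the 4 genes with the smallest p and all called, the 3 nearest patterns of each called member, and, after their values were seen, Fgf15, Fgf21, Fgf23 and Idua. A gene that this rule selects is not reported here. The members and lists were chosen with earlier results of these data known. Counts were also simulated from each gene's mean level and fitted dispersion, with changed genes put in. Apart from library size, these do not carry the differences between the real libraries, such as base composition. In them edgeR found 0 of 50 genes at a 2-fold change, 15 of 50 at 4-fold and 46 of 50 at 16-fold, all with the sign they were given.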

Additional observations from a re-analysis of the deposited data

Results flagged for a closer look

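NPCTKO library 4 lay far above the other 3 NPCTKO libraries for Fgfr1, with 192 CPM and 32.0 FPKM, and for Fgfr2, with 74.9 CPM. These were 3 of 17 sets of NPCTKO values in which the gap of the highest or lowest library was examined against Dixon's critical value, which chance passes in about 1 of 20. The 17 sets are not independent, since most genes enter in both CPM and FPKM of the same 4 libraries. They thus cannot be read as 17 separate chances. Fgfr2 in FPKM was not among the 3.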

How the results depend on the processing

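No member changed direction in any fit. Over all genes, edgeR called 1251 higher and 850 lower in NSCHRas-shp53, against 2183 and 1861 in DESeq2, 540 lower without TMM factors and 1457 lower with GC and length trends removed. Leaving out 1 library gave 415 to 1387 higher and 124 to 1208 lower, fewest without NSCHRas-shp53 library 3. Of the members, 2 were called higher with edgeR, 1 (Fgfr4) without TMM, 1 without a filter and 1 without NPCTKO libraries 1 and 2 together, 0 to 2 without 1 library, and 5, 5 and 4 with limma on log2(FPKM + 1), on log2(FPKM + 0.1) and with a mean FPKM of at least 1. Of the other pathway genes, 11 were higher and 5 lower, against 3 lower without TMM, 3 with the upper quartile and 9 in DESeq2, and 4 to 12 higher and 0 to 6 lower without 1 library.

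The replicate numbers did not pair the samples (correlations of same-numbered deviations 0.309, -0.203 and 0.206). With the replicate block 718 genes were higher and 323 lower, 1 member (Fgfr1) was called, and 2 pathway genes were lower. With that block, limma on FPKM called 0 rows (5032 at an unadjusted p under 0.05), and the 5 members called there were lost, with Fgf1 at 1.83 (adjusted p = 0.071), Fgf2 (0.052), Fgfr1 (0.054), Fgfr4 (0.11) and Fgf9 (0.12). The Fgf1 difference ranged from 1.83 to 2.35 without 1 library. The alternatives with GC and length trends removed, the limma fits without a library and with a block, and FPKM scaled to equal medians were chosen after seeing the data. Against TMM, library totals moved the median of all genes by 0.20 and the upper quartile by 0.14 (log2). Changes of 2-fold were not detected in the simulation, and the causes of these changes were not tested.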
